A study of Mus musculus with 6 samples.

Results

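The immediate early and AP-1 genes were followed here through 10 members, Fos, Fosb, Fosl1, Fosl2, Jun, Junb, Jund, Atf3, Egr1 and Nab2, chosen by name. The choice was made with earlier results of these data known, so that counts set against all genes are a description only. Every non-control probe whose gene name was a member was taken, which gave 12 of the 41174 non-control probes of the array. Fosl2 and Junb had 2 probes each, and the other members 1. Jund was listed under the older symbol Jund1 and was matched through the RefSeq accession of its probe. All 12 probes were among the 29552 probes, standing for 20689 genes, that passed the filter on dim signals.

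The study compared mouse embryonic stem (mES) cells with epiblast stem cells (EpiSC), which are derived from the postimplantation epiblast. Total RNA from 3 cultures of each kind was read on 1-colour Agilent arrays. The mES arrays were of the lines ESF122 (replicate 1), ESF175/1 (replicate 2) and ESF58/2 (replicate 3), kept with LIF. The EpiSC arrays were of EpiSC-5 (replicate 1), EpiSC-7 at passage 20 (replicate 2) and EpiSC-7 at passage 25 (replicate 3), kept with FGF2, so that 3 EpiSC arrays stood for 2 lines. All 6 cultures were grown on irradiated mouse embryonic fibroblasts (MEFs) in DMEM with KSR, a serum replacement. Culture factor and cell kind changed together and cannot be told apart, and fewer cells of a type and less RNA per cell cannot be told apart in such bulk RNA.

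Immediate early genes are transcribed within minutes of a growth factor, cytokine or stress signal by factors already in the cell, such as SRF with its Elk partners and CREB, which MAP kinases activate. Several encode the subunits of AP-1, a dimer of a Fos protein with a Jun protein, or of Jun proteins with each other, that binds the DNA site TGANTCA. Atf3 is a stress-induced relative that pairs with Jun proteins, Egr1 is a zinc-finger factor that binds GCGTGGGCG, and Nab2 is a corepressor that Egr proteins recruit and whose gene they also activate. Both LIF and FGF are known to signal through the ERK branch of the MAP kinases.

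The stretch just upstream of the start is shown for Fos, Jun, Junb and Atf3, the members whose signal differed between the groups by the test below. Each is the 250 bases before the RefSeq start in GRCm38.p6, 5′ to 3′ on the gene's strand, with matches to the searched motifs in capitals. They lie at chr12:85473640-85473889 (Fos, + strand), chr4:95052223-95052472 (Jun, − strand), chr8:84978749-84978998 (Junb, − strand) and chr1:191183334-191183583 (Atf3, − strand).
Fos: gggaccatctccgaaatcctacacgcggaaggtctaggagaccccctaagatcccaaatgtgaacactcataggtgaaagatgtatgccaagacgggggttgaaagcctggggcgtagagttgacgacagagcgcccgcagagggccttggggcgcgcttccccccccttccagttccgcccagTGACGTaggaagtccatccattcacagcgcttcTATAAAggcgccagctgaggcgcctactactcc
Jun: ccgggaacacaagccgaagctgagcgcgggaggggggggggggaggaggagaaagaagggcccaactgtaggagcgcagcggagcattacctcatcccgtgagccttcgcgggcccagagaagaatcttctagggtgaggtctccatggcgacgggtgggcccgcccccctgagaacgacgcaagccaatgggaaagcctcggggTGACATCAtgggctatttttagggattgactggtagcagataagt
Junb: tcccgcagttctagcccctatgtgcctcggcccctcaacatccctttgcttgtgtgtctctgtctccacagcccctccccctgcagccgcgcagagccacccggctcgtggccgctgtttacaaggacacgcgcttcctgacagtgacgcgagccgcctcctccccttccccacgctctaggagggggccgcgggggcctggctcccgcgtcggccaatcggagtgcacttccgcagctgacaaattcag
Atf3: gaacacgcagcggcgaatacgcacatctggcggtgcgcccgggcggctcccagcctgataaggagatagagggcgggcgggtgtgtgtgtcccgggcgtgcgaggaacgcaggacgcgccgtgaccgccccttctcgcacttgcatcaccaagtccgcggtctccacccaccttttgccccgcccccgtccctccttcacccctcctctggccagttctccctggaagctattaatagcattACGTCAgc
The windows of 8 of the 10 members were found in the RefSeq table, and those of Egr1 and Fosl1 were not used here. The motifs searched on both strands were the CREB and ATF core TGACGT, the full element TGACGTCA that contains it, the AP-1 site TGANTCA, the variant element TGACATCA known from the Jun promoter, the CArG box bound by SRF, the Egr site GCGTGGGCG and the TATA box TATAAA. The Fos window held TGACGT at 66 to 61 bases before the start and TATAAA at 33 to 28 bases. The Jun window held TGACATCA at 45 to 38 bases before the start. The Atf3 window held the core on the other strand, ACGTCA, at 8 to 3 bases before the start. The Junb window and those of Fosb, Fosl2, Jund and Nab2 held none of these letters. Over 32851 RefSeq windows of the same length, TGACGT was found in 6.47%, TGACGTCA in 1.55%, TGANTCA in 6.75%, TGACATCA in 2.93%, the CArG box in 1.47%, GCGTGGGCG in 0.536% and TATAAA in 12.4%. These matches are a description of the sequence only, and sites outside the windows were not searched.

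The arrays separated by identity as labelled. All 7 mES markers tested (Zfp42, Esrrb, Klf4, Dppa3, Tbx3, Pecam1 and Nr0b1) were lower in EpiSC and all 7 EpiSC markers (Fgf5, Otx2, T, Eomes, Cer1, Gsc and Foxa2) were higher, while Pou5f1, Sox2 and Nanog were above background on all 6 arrays. Between 66.3% and 75.4% of probes were well above background, and the median signal was 72.4 to 120 intensity units. Each of the 4 slides held 1 group only, so that slide and group cannot be told apart. Replicate 3 of each group lay at slide position 1 and the other 4 arrays at position 4. The sum of 18 fibroblast markers was 70435, 14275 and 90768 in mES replicates 1 to 3 and 104342, 63324 and 13694 in EpiSC replicates 1 to 3, so that mES replicate 2 and EpiSC replicate 3 had the least fibroblast signal. At least 17 of the 18 markers were above background on every array. By limma 0 of 18 differed between the groups at an adjusted p of 0.05, beside 26.3% of all genes, and 0 at an unadjusted p of 0.05. As the fibroblast sums varied widely within each group, this test had little power and does not show equal fibroblast signal. The labels do not say how the cultures relate beyond line and passage, and the tests rest on the spread between these arrays alone.

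Fos, Jun, Junb and Atf3 were higher in EpiSC and no member was lower. By limma with Benjamini-Hochberg adjustment over all genes, 4 of the 10 members passed in the higher direction at an adjusted p of 0.05, against a background of 11.8% of all 20689 genes, and 0 passed in the lower direction, against 14.5% (26.3% of genes in either direction). At an unadjusted p of 0.05 there were 6 higher, Fosl2 by its brighter probe among them, and 0 lower. The share of all genes at that threshold was not taken, and is at least the 11.8% higher and 14.5% lower that passed after adjustment. The log2 fold change, EpiSC minus mES, was above 0 for 9 of the 10, Fosl2 by its brighter probe among them. The median change was 1.54 over the members, with that probe standing for Fosl2, and -0.11 over every gene tested. The other Fosl2 probe gave -0.44, and both the count and the members' median would be lower with it. In 6 members all 3 EpiSC values lay above all 3 mES values, against 20% of all genes, and in the other 4 the groups overlapped. In 0 members all EpiSC values lay below, against 28.6% of all genes. Among the 6 was Fosl2, by its brighter probe, which was well above background on 2 of 3 mES arrays. The other Fosl2 probe had all EpiSC values below all mES values. All 4 that passed were more than 2-fold higher, a class that held 8.84% of all genes.

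**Figure D1:**
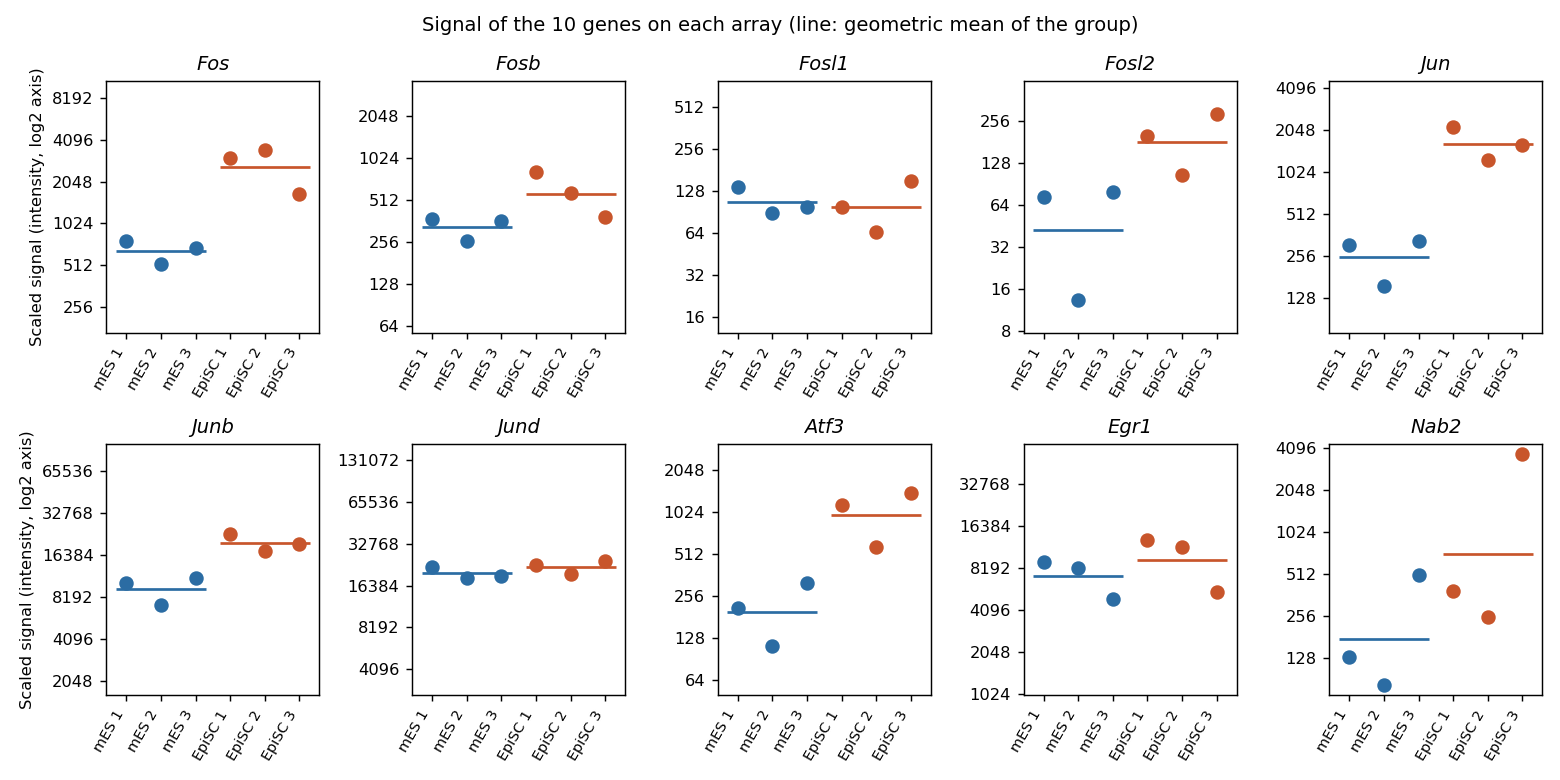
Scaled signal (intensity units, log2 axis, its own range in each panel) of the probe standing for each of the 10 members on each array, mES in one colour and EpiSC in the other, with lines at the group geometric means. Fos, Jun, Junb and Atf3 have all 3 EpiSC points above all 3 mES points, while Egr1 and Jund overlap and 1 EpiSC point of Nab2 stands at 3701.

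Of the Fos family, which supplies the AP-1 subunits that need a Jun partner, only Fos itself passed the test between the groups. Its scaled signal, the processed intensity brought to a common 75th percentile, was 769, 525 and 682 in mES replicates 1 to 3 and 3028, 3462 and 1670 in EpiSC replicates 1 to 3. Every EpiSC array lay above every mES array, and the lowest EpiSC array was EpiSC-7 at passage 25. The log2 fold change was 2.00 ± 0.32 (SE, 3 arrays a group, adjusted p = 0.00719 by limma), a 3.99-fold higher signal with a 95% interval of 2.35 to 6.78. The Fos probe was spotted 10 times on each array, and its spots varied by a log2 SD of 0.034 to 0.089 within an array, which is the error of spotting and not of cultures.

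Fosb encodes a Fos relative best known as a stimulus-induced gene in neurons. Its scaled signal was 376, 259 and 362 in mES and 813, 580 and 386 in EpiSC. The groups did not overlap, but EpiSC replicate 3 lay close to the highest mES array. The log2 fold change of 0.79 ± 0.31 did not pass (adjusted p = 0.107 by limma, 95% interval 0.04 to 1.54).

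Fosl1, which encodes Fra-1, gave 137, 89.7 and 99.3 in mES and 99.0, 64.8 and 150 in EpiSC. The groups overlapped across their whole range. Between the groups it differed by a log2 fold change of -0.11 ± 0.34 (adjusted p = 0.827 by limma, 95% interval -0.94 to 0.71), which leaves room for a change in either direction.

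Fosl2, which encodes Fra-2, was measured by 2 probes that pointed opposite ways. The brighter one gave 73.3, 13.3 and 79.4 in mES, the second of these not well above background, and 199, 105 and 290 in EpiSC. All EpiSC values were the higher ones, and the log2 fold change was 2.10 ± 0.75 (adjusted p = 0.0843 by limma, 95% interval 0.28 to 3.91). For this probe the value was 1.26 without mES replicate 2, the array not above background, 0.95 with normexp background correction and 0.92 without the pair of arrays poorest in fibroblast signal (mES replicate 2 and EpiSC replicate 3). The other probe gave 80.3, 79.6 and 89.9 in mES and 58.5, 66.4 and 59.0 in EpiSC. Here all EpiSC values were the lower ones, by a log2 fold change of -0.44 ± 0.16 (adjusted p = 0.0848 by limma over all probes). Neither probe passed, and the direction for Fosl2 rested on which probe stood for the gene.

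Jun, the founding member of the Jun family and the AP-1 subunit that c-Jun N-terminal kinases phosphorylate, had the largest fold of the members that passed. Its scaled signal was 307, 155 and 332 in mES and 2160, 1251 and 1599 in EpiSC. The lowest EpiSC array, EpiSC-7 at passage 20, lay far above the highest mES array. The log2 fold change was 2.70 ± 0.36 (adjusted p = 0.0040 by limma), a 6.49-fold higher signal with a 95% interval of 3.58 to 11.8. The Jun probe also had 10 spots on each array, which varied by a log2 SD of 0.045 to 0.101.

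Junb, a Jun relative that is also a known target of STAT3, rose less. Its brighter probe gave 10374, 7200 and 11144 in mES and 23071, 17631 and 19587 in EpiSC, without overlap. This probe's log2 fold change was 1.09 ± 0.23 (adjusted p = 0.0175 by limma), a 2.12-fold higher signal with a 95% interval of 1.45 to 3.1. The other Junb probe gave 8720, 6312 and 9905 in mES and 16129, 13950 and 18238 in EpiSC, again without overlap, and a log2 fold change of 0.97 ± 0.23 (adjusted p = 0.0245 by limma over all probes). Both Junb probes thus passed in the same direction. Over all member probes 5 of 12 passed higher by limma, against 12.2% of all probes, and these stood for the same 4 genes. At that threshold 0 were lower, and 1, of Fosl2, was lower at an unadjusted p of 0.05. The shares of all probes that were lower were not taken. The Junb gene call was lost without EpiSC replicate 1 (log2 fold change 0.98, adjusted p = 0.0617) or EpiSC replicate 3 (1.10, adjusted p = 0.0574).

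Jund, the Jun member that is present in most cells without a stimulus, gave 22258, 18695 and 19307 in mES and 23056, 19943 and 24396 in EpiSC. The groups overlapped, with mES replicate 1 above EpiSC replicate 2. Jund's log2 fold change was 0.16 ± 0.17 (adjusted p = 0.504 by limma), with a 95% interval of -0.25 to 0.57.

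Atf3, the stress-induced partner of Jun proteins, gave 210, 113 and 318 in mES and 1150, 576 and 1396 in EpiSC. All EpiSC arrays lay above all mES arrays, with the lowest EpiSC value in EpiSC-7 at passage 20. Atf3's log2 fold change was 2.31 ± 0.48 (adjusted p = 0.0171 by limma), a 4.97-fold higher signal with a 95% interval of 2.23 to 11.1. The Atf3 call was lost without EpiSC replicate 1 (2.19, adjusted p = 0.0588) or EpiSC replicate 3 (2.05, adjusted p = 0.0625).

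Egr1, the zinc-finger immediate early factor, gave 9157, 8231 and 4958 in mES and 13002, 11711 and 5512 in EpiSC. The groups overlapped, and replicate 3, the array at slide position 1, was the lowest of each group. Egr1's log2 fold change was 0.39 ± 0.40 (adjusted p = 0.493 by limma, 95% interval -0.57 to 1.35). It was 0.12 without mES replicate 3, 0.16 without EpiSC replicate 1, 0.23 without EpiSC replicate 2, 0.78 without EpiSC replicate 3 and 0.87 without the pair of arrays poorest in fibroblast signal. Position held both groups. With position as a block Egr1 did not pass (0.39 ± 0.17, adjusted p = 0.131), and the difference was 0.51 within position 4 and 0.15 within position 1.

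Nab2, the Egr corepressor, gave 128, 81.6 and 499 in mES and 386, 252 and 3701 in EpiSC. Replicate 3 was here the highest array of each group, and the groups overlapped because mES replicate 3 exceeded both other EpiSC arrays. Nab2's log2 fold change was 2.04 ± 1.14 and did not pass (adjusted p = 0.223 by limma, 95% interval -0.70 to 4.77). It was 0.85 without EpiSC replicate 3 and 0.30 (adjusted p = 0.802) without the pair of arrays poorest in fibroblast signal, neither of which passed. With position as a block the value was 2.04 ± 0.37 and passed (adjusted p = 0.0168), and the difference was 1.61 within position 4 and 2.89 within position 1. Line, passage and position differed together between the replicates and cannot be told apart.

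**Figure D2:**
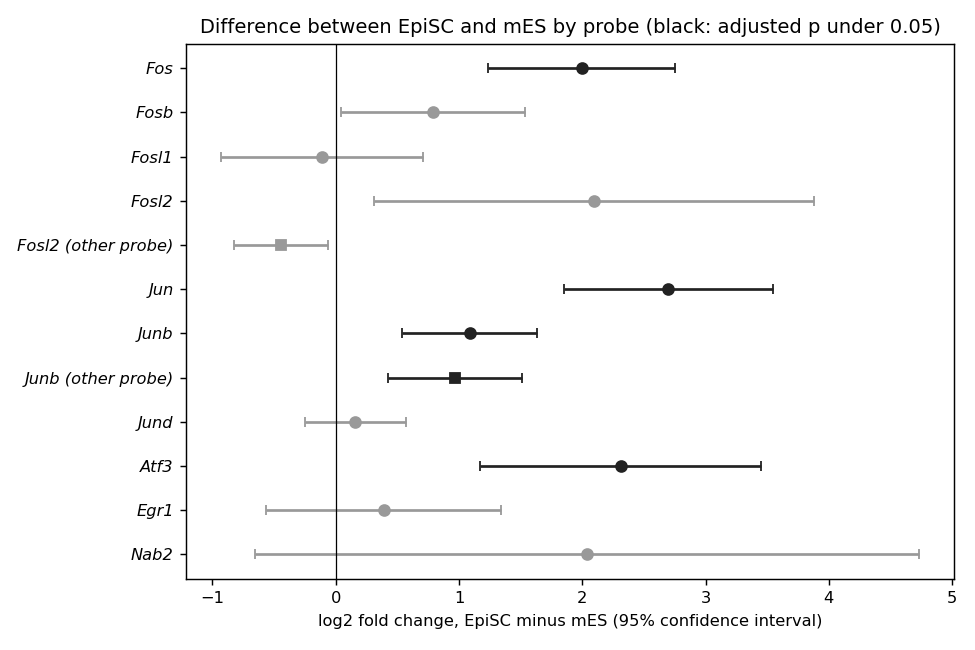
Log2 fold change (EpiSC minus mES) of each of the 12 member probes with its 95% interval from the probe-level fit; black marks probes with an adjusted p under 0.05 and squares mark the other probe of Fosl2 and of Junb. Fos, Jun, Atf3 and both Junb probes lie to the right of 0 and passed, while the Fosl2 probes lie on opposite sides of 0.

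Within position 4, with 2 arrays a group, Fos (2.35 ± 0.27, adjusted p = 0.019) and Jun (2.91 ± 0.47, adjusted p = 0.0338) passed by limma. Junb (1.22 ± 0.29, adjusted p = 0.0664) and Atf3 (2.40 ± 0.49, adjusted p = 0.0517) kept their direction there and did not pass. The single pair of arrays at position 1 gave differences of 1.29 for Fos, 2.27 for Jun, 0.81 for Junb and 2.13 for Atf3, with no test. With position as a block, all 4 passed, with adjusted p between 0.0080 for Jun and 0.0243 for Junb.

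The fibroblast markers varied within each group, and so the members were set beside them. On mES replicate 2, the mES array with the least fibroblast signal, Fos, Fosb, Fosl2, Jun, Junb, Jund, Atf3 and Nab2 were at the lowest value of their 6. On EpiSC replicate 3, with the least fibroblast signal of all arrays, Fosl1, Fosl2, Jund, Atf3 and Nab2 were at the highest value of their 6, whereas Fos, Fosb and Egr1 were at their lowest EpiSC value. Jun and the brighter Junb probe lay there between the other EpiSC arrays, while the other Junb probe had its highest value there (18238). Fosl2 is placed here by its brighter probe. Its other probe gave 79.6 on mES replicate 2 and 59.0 on EpiSC replicate 3, neither the lowest nor the highest of its 6. Without both of these arrays, an alternative chosen after seeing the data, Fos (2.16 ± 0.24, adjusted p = 0.0177) and Jun (2.37 ± 0.34, adjusted p = 0.0295) passed by limma. Junb (0.91 ± 0.26, adjusted p = 0.111) and Atf3 (1.65 ± 0.44, adjusted p = 0.0948) did not. That fit had fewer arrays, and over all genes 1548 passed in it, against 5436 with all 6 arrays. The part of feeder cells in these levels was not tested.

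The array of EpiSC-7 at passage 25 differed most from that at passage 20 in Nab2, with a log2 difference of 3.88 between these single arrays (14.7-fold). Of 20680 genes compared, 16 were at least as far apart, Nab2 included. Atf3 was 2.43-fold and Fosl1 2.32-fold higher at passage 25, while Fos was 2.07-fold and Egr1 2.12-fold higher at passage 20. Jun, Junb and Jund differed by log2 values of 0.35, 0.15 and 0.29. With 1 array a passage these differences have no replicate check, and the passages also differed in slide position and fibroblast signal.

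The members did not share 1 profile over the 6 arrays. By the root mean square distance between log2 values, each gene centred on its own mean, the closest of the 45 pairs were Fosb with Junb (0.31), Fosl1 with Jund (0.32) and Atf3 with Jun (0.37). Egr1 and Nab2 were the farthest apart (2.07). Of all genes tested, the profiles nearest to Fos were those of Igfbp4, a binding protein for insulin-like growth factors (0.11), and Tmem123 (0.19), followed by a probe listed by a transcript identifier alone. Nearest to Egr1 was Tmod4, a tropomodulin that caps actin filaments (0.075), followed by 2 probes listed by transcript identifiers alone. These distances cover 6 arrays of 2 groups and are given as a description.

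**Figure D3:**
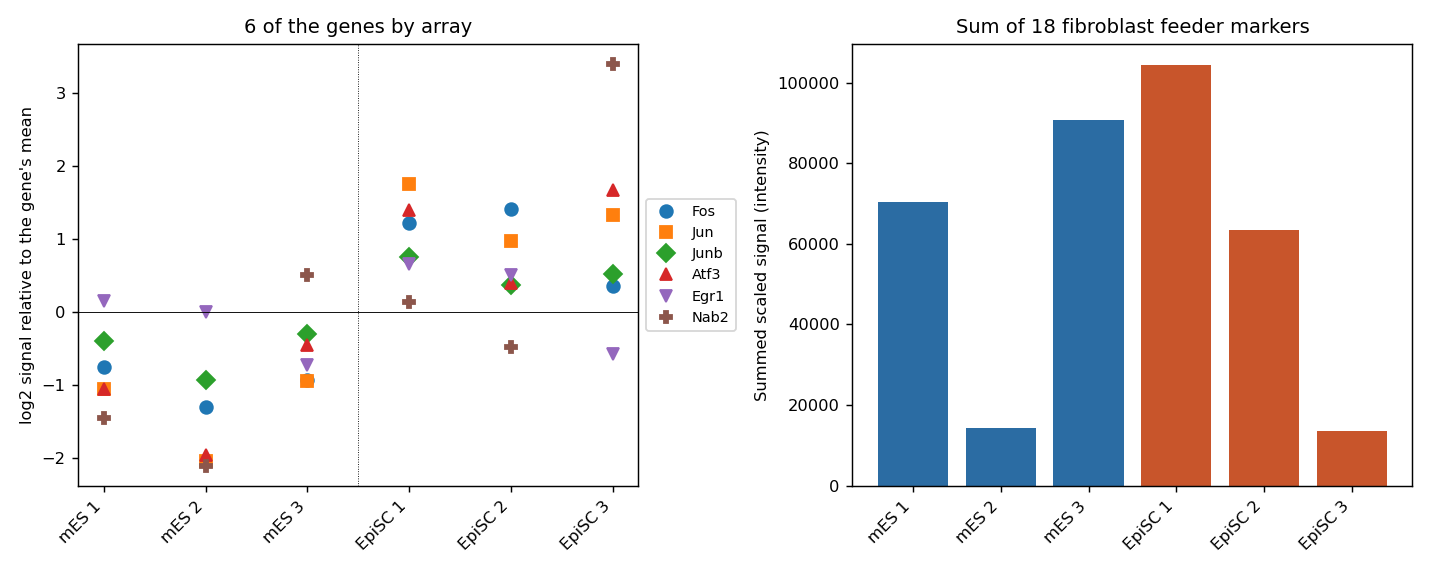
Left, log2 signal of Fos, Jun, Junb, Atf3, Egr1 and Nab2 on each array, each gene centred on its mean over the 6 arrays; right, the summed scaled signal of 18 fibroblast markers on the same arrays. Nab2 runs opposite to Egr1 on replicate 3 of each group, and the fibroblast sum is lowest on mES replicate 2 (14275) and EpiSC replicate 3 (13694).

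Among the other immediate early genes, listed apart from the members, 14 of the 46 tested were higher in EpiSC and 3 lower by limma at an adjusted p of 0.05, and 29 did not pass. Over all genes 11.8% were higher and 14.5% lower. The list's median log2 fold change was 0.67, beside -0.11 for all genes. Ccn1, a matricellular protein, had the scaled signals 1504, 929 and 2941 in mES and 17710, 7320 and 12194 in EpiSC, and was higher by 2.86 ± 0.50 (adjusted p = 0.0096). Egr3, another Egr factor, and Gem, a small GTP-binding protein, entered through their EpiSC signal, as Egr3 was well above background on 1 of 3 mES arrays and Gem on 2 of 3. The signals of Egr3 were 26.2, 3.92 and 12.3 in mES and 299, 91.5 and 192 in EpiSC, and those of Gem 22.7, 12.4 and 43.2 in mES and 232, 144 and 194 in EpiSC. Their fitted log2 fold changes of 4.01 (Egr3, adjusted p = 0.0125) and 3.02 (Gem, adjusted p = 0.0064) are thus set partly against background, and the sizes are uncertain. A further gene among the 14 entered in the same way and was well above background on 0 of 3 mES arrays. Another Egr3 probe gave -0.98 (adjusted p = 0.157), and Egr3 did not pass as the mean of its probes (1.51, adjusted p = 0.0948) or within position 4 (adjusted p = 0.0889). Without the pair of arrays poorest in fibroblast signal, Ccn1 (2.44, adjusted p = 0.0733) and Egr3 (3.20, adjusted p = 0.0638) did not pass and Gem did.

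The 3 immediate early genes that were lower were Plk2, a polo-like kinase (-1.37 ± 0.28, adjusted p = 0.0159), Ier5l (-1.18 ± 0.25, adjusted p = 0.0169) and Mcl1, a survival protein of the BCL2 family (-1.02 ± 0.21, adjusted p = 0.0163), all by limma. A further Ier5l probe gave 0.01. Without the pair of arrays poorest in fibroblast signal Ier5l (-0.89, adjusted p = 0.116) and Mcl1 (-1.03, adjusted p = 0.105) did not pass. Well-known genes of the group that did not pass were Nr4a1, an orphan nuclear receptor (0.33, adjusted p = 0.497), Ier2 (-0.04, adjusted p = 0.856; above 0 with normexp, quantile or median scaling), Dusp1, a MAP kinase phosphatase (-0.33, adjusted p = 0.30), and Myc (0.62, adjusted p = 0.393). Zfp36, which binds AU-rich RNA, gave 0.73 (adjusted p = 0.164) by its brighter probe and 1.56 (adjusted p = 0.039) by the other. Btg2, an antiproliferative gene, passed by its brightest probe (1.14, adjusted p = 0.0385) but not by its other probes (0.64 and 0.24), and in 1 of 6 fits with an array left out.

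**Figure D4:**
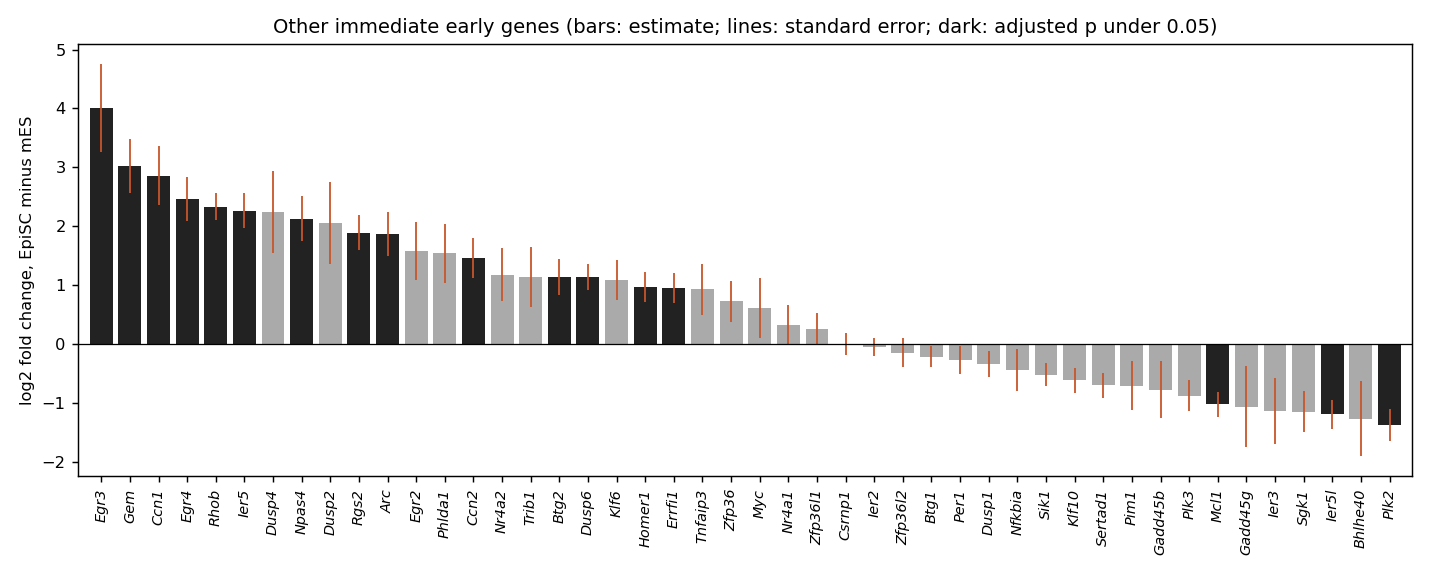
Log2 fold change (EpiSC minus mES) of the 46 other immediate early genes tested, bars starting at 0 with lines for 1 standard error, and dark bars for an adjusted p under 0.05. The 14 that passed higher include Egr3 (4.01) and Gem (3.02), both partly at background in mES, and the 3 that passed lower are Plk2, Ier5l and Mcl1.

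The factors that drive or temper these genes were tested as a list of SRF and Egr regulators, which holds Egr1 and Nab2 and shares Egr2, Egr3 and Egr4 with the list above. Of 16 tested, 4 were higher and 1 lower by limma, beside 11.8% and 14.5% of all genes, and the list's median was 0.69 (log2). Srf, the factor at serum response elements, gave 1688, 1420 and 1839 in mES and 5456, 3746 and 5915 in EpiSC, and was higher by 1.59 ± 0.23 (adjusted p = 0.0054). Egr4 was higher by 2.46 ± 0.37 (adjusted p = 0.0060), while Egr2 did not pass (1.58 ± 0.50, adjusted p = 0.0599). Nab1, the relative of Nab2, passed at 1.84 ± 0.50 (adjusted p = 0.0379), but in only 1 of the 6 fits with an array left out, and not when EpiSC-7 counted as 1 array (1.76, adjusted p = 0.0558). Without the pair of arrays poorest in fibroblast signal Srf (1.36, adjusted p = 0.0617), Egr4 (2.51, adjusted p = 0.059) and Nab1 (1.09, adjusted p = 0.156) did not pass. Mrtfb, an actin-regulated SRF cofactor, was lower by limma (-2.19 ± 0.29, adjusted p = 0.0040). Elk1 and Elk4 did not pass the filter on dim signals.

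Among other AP-1 and ATF relatives with a basic leucine zipper, 4 of 27 tested were higher and 3 lower, beside 11.8% and 14.5% of all genes, and their median log2 fold change was 0.13. The higher ones with the largest change were Creb3l2, a membrane-bound factor (2.52, adjusted p = 0.0190 by limma; another probe 0.55), the small Maf gene Maff (1.77, adjusted p = 0.0301) and Batf, a Jun partner of lymphocytes (1.45, adjusted p = 0.0295). The lower ones were Nfe2l2, which encodes the antioxidant factor NRF2 (-1.10, adjusted p = 0.0223), Batf2 (-0.76, adjusted p = 0.0437) and Ddit3, which encodes the stress factor CHOP (-0.66, adjusted p = 0.0499). Ddit3 and Batf2 passed in 0 of 6 fits with an array left out. Batf (adjusted p = 0.0758), Batf2 (adjusted p = 0.0781) and Ddit3 (adjusted p = 0.0922) did not pass when EpiSC-7 counted as 1 array, and all 6 of these genes did not pass without the pair of arrays poorest in fibroblast signal. The dimer partners Jdp2 (0.20), Batf3 (0.13), Atf2 (0.36) and Atf7 (-0.06; 0.04 with median scaling) did not pass.

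Of the MAP kinases and their effector kinases, 4 of 29 were higher and 3 lower, beside 11.8% and 14.5% of all genes, and the median over the list was 0.09 (log2). Mapk3 (0.14), which encodes a kinase of the ERK branch, did not pass, nor did Rps6ka3 (0.27), which encodes the ribosomal S6 kinase RSK2. Mapk12 (1.27, adjusted p = 0.0435) and Mapk11 (1.15, adjusted p = 0.0142), both p38 kinases, were higher by limma, whereas Mapk13, another p38 kinase, was lower (-2.84, adjusted p = 0.0057). Rps6ka4 (-1.47, adjusted p = 0.0481) and Rps6ka1 (-1.12, adjusted p = 0.0052) were also lower. When EpiSC-7 counted as 1 array, Mapk12 (adjusted p = 0.105), Rps6ka4 (adjusted p = 0.102) and Mapk8 (adjusted p = 0.0552) did not pass. Without the pair of arrays poorest in fibroblast signal, Mapk13 alone of these kinases passed. Mapk8, the gene of the Jun kinase JNK1, passed by its brightest probe (0.76, adjusted p = 0.0449), but its other probes gave -0.35, 0.83 and -0.42 without passing, and it passed in 0 of 6 fits with an array left out. Mapk9, the gene of JNK2, gave -0.12 by its brightest probe, and its other probes passed lower (-0.64 and -0.73).

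Of 26 genes known as AP-1 targets in other cells, 3 were higher and 2 lower by limma, beside 11.8% and 14.5% of all genes, and the median was -0.24 (log2). Lor, the cornified envelope protein loricrin, was higher by 3.40 ± 0.68 (adjusted p = 0.0151), Tgfb1 by 1.36 (adjusted p = 0.0075) and the matrix protease gene Mmp9 by 1.15 (adjusted p = 0.0390). The metallothioneins Mt2 (-2.76, adjusted p = 0.0061) and Mt1 (-2.04, adjusted p = 0.0301) were lower. When EpiSC-7 counted as 1 array, Mmp9 (adjusted p = 0.0817) and Mt1 (adjusted p = 0.0785) did not pass. Without the pair of arrays poorest in fibroblast signal, Tgfb1 (1.34, adjusted p = 0.0811), Mmp9 (0.89, adjusted p = 0.205), Mt2 (-2.84, adjusted p = 0.0568) and Mt1 (-1.97, adjusted p = 0.165) did not pass, and Lor did. All kept their direction in that fit, which had fewer arrays and called 1548 genes, against 5436 with every array.

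Heat shock genes were read as a further list, and stress in the cultures was not tested. Of 11 tested, 0 were higher and 1 lower by limma at an adjusted p of 0.05, beside 11.8% and 14.5% of all genes. At an unadjusted p of 0.05, 1 was higher and 3 lower. No share of all genes was taken at that threshold, where it is at least the 11.8% and 14.5% after adjustment. The gene that passed was Hspb1, a small heat shock protein (-3.08 ± 0.22, adjusted p = 0.0006). The list's median log2 fold change was -0.34 (0.11 with quantile normalization), and its summed signal was 524692 to 570633 in mES and 400227 to 468415 in EpiSC.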

How the data were processed

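Total RNA of 6 cultures was measured on 1-colour Agilent arrays of 45018 spots. The intensity values were deposited by the authors as scanner output of Agilent Feature Extraction 9.1.3.1, per the file headers. They are detrended and background-adjusted within an array and not normalized between arrays. The deposited value table differed from these intensity values by at most 0.00716 on the log2 scale, and 0 of its per-sample columns were unused. For the probes, the sources used here name no genome build.

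Control spots and 12 to 24 outlier spots per array were left out, and no array had a saturated spot. Spots of a probe were averaged as log2 processed signal, from which the array's 75th percentile was subtracted. Probes were kept when well above background on all arrays of at least 1 group, with at most 1 missing value a group, and the brightest kept probe stood for a gene. Of 41174 probes, 22951 were named through a RefSeq accession (GRCm38.p6) and the others kept the file's name. The test was limma 3.58.1 (R 4.3.3), two-sided, with no covariate and Benjamini-Hochberg adjustment over 20689 genes, or over 29552 probes where a probe's own value is given, at a threshold of 0.05. As 2 EpiSC arrays came from EpiSC-7, their average was tried as 1 array. Residual degrees of freedom were 4, the median standard error was 0.241, and the number of arrays limits the precision. Scripts were tested on simulated data.

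The members and lists were chosen with earlier results of these data known. Genes named from the other lists were at most 3 per direction with the largest change past the threshold, plus a fixed set of well-known regulators whatever their values (1 of them is not reported here), and for Fos and Egr1 the 3 nearest profiles. Another label of mES replicate 3 names its line ESF58/1.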

Additional observations from a re-analysis of the deposited data

How the results depend on the processing

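Over all genes the median difference was -0.11 (log2), and -0.17 with normexp background correction, -0.02 with quantile normalization and -0.01 with median scaling. Fos and Jun passed under all 21 alternatives with a test, at log2 fold changes of 1.79 to 2.35 and of 2.35 to 2.91. Junb and Atf3 each passed under 17 of 21, and the 4 where they did not are given above. Fosb, Fosl1, Jund and Egr1 passed under none.

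The number of genes called was 5436, and 8712 with no filter on dim probes (6118 lower), 11785 with slide as a random block (4985 higher, 6800 lower), 2686 within position 4 (1210 higher, 1476 lower) and 1548 without the pair of arrays poorest in fibroblast signal (830 higher, 718 lower). Arrays sharing a slide had a fitted correlation of -0.68. Leaving out each array in turn gave 2945 to 4957 genes, 1379 to 2171 higher and 1566 to 2786 lower. The members called higher were 2 within position 4, 2 without that pair and 2 to 4 with an array left out. The member probes called higher were 3, 2 and 2 to 5 in the same order, and with slide as a block 1 member probe, of Fosl2, was lower. With that block Nab2 (1.98, adjusted p = 0.0385 by limma) and Fosl2 (1.57, adjusted p = 0.0409) also passed. The Nab2 standard error was 0.65 there, against 1.14 in the main fit. Slides with more than 1 array held 1 group each and paired position 4 with position 1. The slide correlation can thus not be told apart from position, and no conclusion is drawn from these passes. The fits of this paragraph had fewer arrays, fewer or more probes, or another error term, and the cause was otherwise not tested.

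Fosl2 turned to -0.44 when every array had to be above background, -0.36 within position 4 and -0.42 without EpiSC replicate 3, where its other probe stood for it, and reached 2.54 without mES replicate 3. Fosl1 turned to 0.60 within position 1, and ranged from -0.42 to 0.19 with an array left out. Ier2 was 0.0060 with normexp, 0.12 with quantile normalization, 0.056 with median scaling and 0.030 without the pair of arrays poorest in fibroblast signal, and -0.10 to 0.0039 with an array left out. Atf7 was 0.038 with median scaling, 0.28 as the mean of its probes and 0.025 without that pair. Jdp2 was -0.032 with slide as a block, -0.30 without that pair and -0.20 to 0.75 with an array left out, and Batf3 -0.10 to 0.32. Within position 4 Myc was -0.024, Mapk8 -0.81 and Mapk9 0.0023. List medians turned for heat shock genes (0.11 with quantile normalization), fibroblast markers (-0.089 with no missing value allowed, -0.66 with slide as a block, -0.88 to 0.85 with an array left out), MAP kinases (-0.032 within position 4, -0.012 as the mean of probes) and AP-1 targets (0.21 within position 4, -0.52 to 0.19 with an array left out). The cause of these turns was not tested. Of the other genes named as passing, Egr3, Gem, Ccn1, Egr4, Srf, Mrtfb, Mapk13, Rps6ka1, Lor, Tgfb1, Mt2 and Hspb1 passed in all 6 fits with an array left out, Plk2 and Mapk11 in 5, Ier5l in 4, Mcl1, Creb3l2, Maff and Nfe2l2 in 3, Batf in 2, Nab1, Btg2, Mapk12, Mmp9 and Mt1 in 1, and Batf2, Ddit3, Mapk8 and Rps6ka4 in 0. Egr3 and Gem entered through their EpiSC signal and were partly at background in mES, which leaving out an array does not change. Egr3 also did not pass as the mean of its probes (1.51, adjusted p = 0.0948 by limma). Without the pair of arrays poorest in fibroblast signal Gem, Plk2, Mrtfb, Mapk13, Lor and Hspb1 passed and the others of the genes named as passing did not. When EpiSC-7 counted as 1 array, Nab1, Batf, Batf2, Ddit3, Mapk8, Mapk12, Rps6ka4, Mmp9 and Mt1 did not pass.

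No paired analysis was possible because replicates were numbered by accession only and the labels pair no cultures.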
